A study of Homo sapiens with 2 samples.

Results

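MicroRNA genes and their host transcripts were examined on 2 Affymetrix arrays of HepG2, a line of human liver cancer cells. 1 array held RNA of HepG2 cells exposed for 24 h to 100 mg/L of amorphous silica nanoparticles (SiO2-NP), and 1 held RNA of control HepG2 cells, for which the labels give no dose or time. Cells of both groups grew in MEM medium, and each array took about 300 ng of total RNA, made into biotin-labelled cDNA by a whole-transcript method. Members were genes whose symbol starts with MIR followed by a digit or by LET7, measured by a probe (a probe set read out as 1 value) with exactly 1 gene symbol. This gave 189 members of 18417 genes: 173 MIR genes, which encode microRNA hairpins, and 16 host transcripts, whose symbols end in HG. Single genes were chosen by symbol, but the group as a whole was selected on measured values, the log2 differences of these same arrays. Every value here is therefore a description and none is a test.

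A microRNA gene is transcribed into a long primary transcript. DROSHA with DGCR8 crops a hairpin out of it in the nucleus, XPO5 exports the hairpin, and DICER1 cuts it to the mature microRNA, which an Argonaute protein carries to target mRNAs. Pairing rests mainly on the seed, bases 2 to 8 of the mature form. Some microRNA genes lie in introns of protein-coding genes, others in non-coding host transcripts, and neighbouring ones can be cropped from 1 shared transcript. The kit labels total RNA by a whole-transcript method, and nothing in the labels says that small RNAs were selected, so a probe on a hairpin is not a measure of the mature microRNA.

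For each of the 3 MIR genes past 1.5-fold, 1 mature form is shown first, from its 5′ end, with the seed in capitals, as RefSeq gives it on GRCh38.p14. The other mature forms of these genes (miR-23a-5p, miR-194-3p and miR-103a-1-5p) have other seeds and are not shown. miR-107, which has the seed of miR-103a, and miR-21, of a gene above the level filter described below, are shown for comparison.
hsa-miR-23a-3p: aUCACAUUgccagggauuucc
hsa-miR-194-5p: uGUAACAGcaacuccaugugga
hsa-miR-103a-3p: aGCAGCAUuguacagggcuauga
hsa-miR-107: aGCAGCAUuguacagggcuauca
hsa-miR-21-5p: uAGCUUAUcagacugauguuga

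The hairpin of MIR23A lies at chr19:13836587-13836659 on the minus strand, inside the non-coding host MIR23AHG. That of MIR194-2 lies at chr11:64891355-64891439 on the minus strand, inside MIR194-2HG. That of MIR103A1 lies at chr5:168560896-168560973 on the minus strand, within PANK3, a pantothenate kinase gene of coenzyme A synthesis. That of MIR21 lies at chr17:59841266-59841337 on the plus strand, within VMP1, a gene of autophagy and membrane traffic. These positions are those of the RefSeq hairpins and not of the array probes.

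With 1 array per group there was no replicate error, and each difference below (SiO2-NP minus control, on the log2 scale) describes these 2 arrays. Each array held RNA of a whole culture, so fewer cells of a kind and less RNA per cell cannot be told apart. The label was borne out by 7 of 8 measured hepatocyte markers above the level filter, among them ALB and AFP. The exception was MIR122, the hallmark microRNA gene of liver, with 3.79 in the SiO2-NP array and 3.68 in the control array. Of the leukocyte markers 2 of 7 lay above the filter (CD68 and LYZ), of the fibroblast or smooth muscle markers 2 of 4 (COL1A1 and ACTA2), and of 5 endothelial, 3 erythroid, 5 neural and 2 muscle markers none.

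MIR genes gave dim signals. Their log2 intensities ran from 2.62 to 9.14 in the SiO2-NP array (median 4.82) and from 2.53 to 8.90 in the control array (median 4.75). Only 13 of the 173 (7.51%) reached the level filter, a mean over both arrays at or above the median of all gene means (7.26), which 50% of all genes pass. This is a filter on signal and not a detection call, so a dim MIR gene cannot be told from an absent one. MIR190A had the lowest mean (2.66 in the SiO2-NP array, 2.53 in the control array), MIR9-3 the middle one (4.88 and 4.71 in the same order) and MIR326 the highest.

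The signals followed the base composition of the hairpins. Across the 155 MIR genes with a RefSeq hairpin, the share of G and C correlated with the mean level with a Pearson r of 0.74 and a Spearman rho of 0.73. These genes share both arrays and differ in probe sequence, so the relation is only a description. The 53 hairpins under 45% G and C had a median level of 3.73 and none above the filter, the 54 from 45% to 55% had 4.51 and 1 above it (MIR21), and the 48 at 55% or more had 6.30 and 11 above it. Hairpin length, from 63 to 119 bases, correlated with the level with an r of 0.06. The order of levels between MIR genes is therefore not read as an order of RNA amounts.

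**Figure D1:**
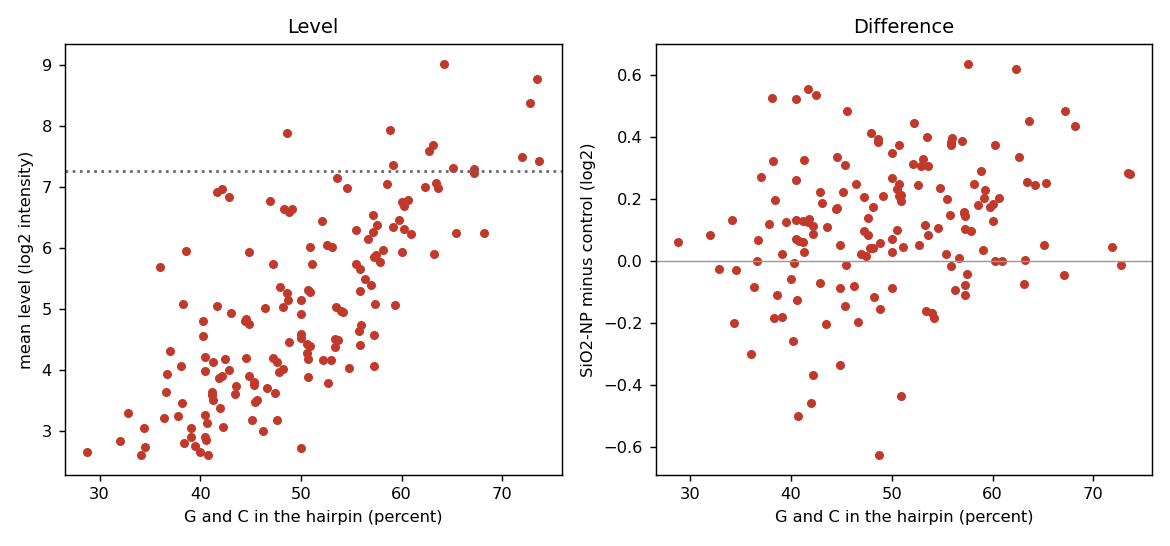
Share of G and C in the RefSeq hairpin (percent) of 155 MIR genes against the mean level over both arrays (left, log2 intensity, dotted line at the level filter) and against the difference, SiO2-NP minus control (right, log2). Each point is 1 gene: the level climbs with G and C (r = 0.74), and the difference does so weakly (r = 0.24).

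Most MIR genes lay slightly above the control in the exposed cells. The difference was positive in 128 of 173 (74.0%), against 52.3% of all genes, and negative in 44, against 47.6% of all genes. The median was 0.12 over MIR genes and 0.01 over all 18417 genes, and the middle 95% of MIR genes ran from -0.36 to 0.52. Past 1.5-fold (0.58 on the log2 scale) were 2 MIR genes higher and 1 lower, or 1.16% and 0.578% of them, beside 0.331% and 0.369% of all genes. When each difference was set against the running median of genes of like level, this split became 0 higher to 1 lower. Of all 18417 genes, 46 were then higher and 82 lower. No MIR gene reached 2-fold, beside 2 higher and 10 lower of all 18417 genes.

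The gap between MIR genes and other genes differed by level. Dim genes in general lay above the control: of all genes below the filter 64.3% had a positive and 35.4% a negative difference, and of those at or above it 40.2% had a positive and 59.8% a negative one. Below a level of 4, MIR genes had a median of 0.06 (33 of 51 positive), beside 0.03 for other genes. From 4 to 5 the MIR median was 0.14 (33 of 43) beside 0.06, and from 5 to 6 it was 0.13 (21 of 31) beside 0.08. From 6 to the filter it was 0.20 (31 of 35) beside 0.06, and above the filter 0.18 (10 of 13) beside -0.03. After centring on the running median of genes of like level, the MIR median was 0.08 and 66.5% were positive. The small nucleolar RNA genes (SNORD and SNORA), also short non-coding RNAs, had a median of -0.29 over 176 genes, with 155 negative. No test of the gap between these classes was possible.

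Base composition moved with the difference too. Its correlation with the share of G and C was weak (r = 0.24 and rho = 0.25 over 155 genes), and the medians were 0.07 below 45%, 0.13 from 45% to 55% and 0.18 at 55% or more, with 33 of 53, 42 of 54 and 40 of 48 positive. The part of base composition in the higher MIR values was not tested.

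**Figure D2:**
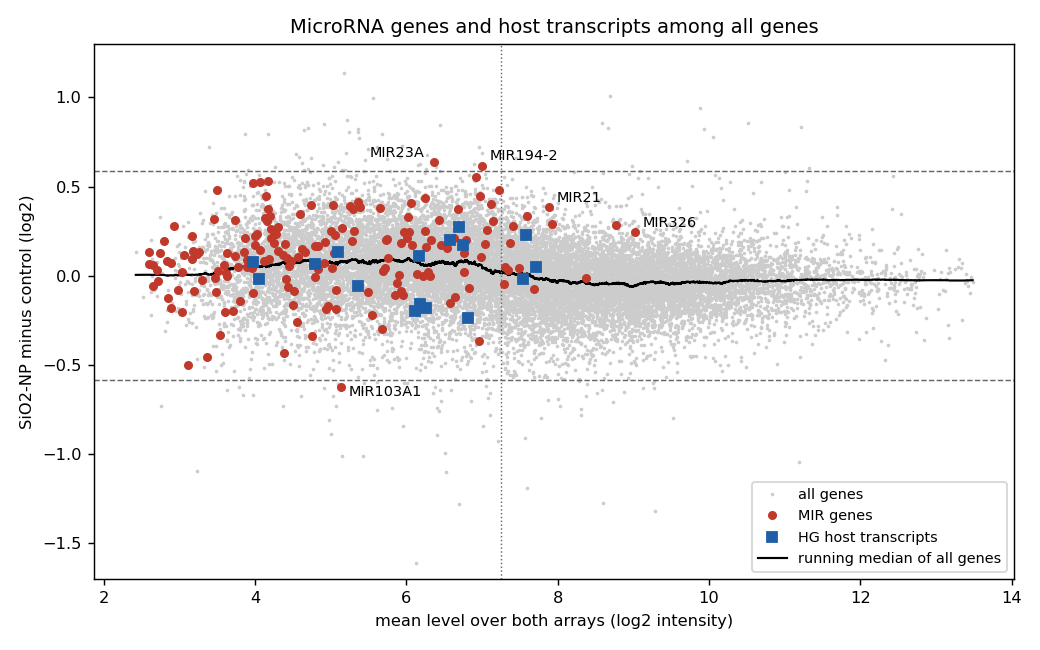
Difference between the arrays (SiO2-NP minus control, log2) against the mean level over both (log2 intensity) for all 18417 genes, with 173 MIR genes as circles and 16 HG host transcripts as squares. The solid line is the running median of all genes, the dashed lines mark 1.5-fold and the dotted line the level filter. Of the MIR genes, 128 lie above 0 and 3 lie past the dashed lines.

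MIR23A, a member of the MIR23A, MIR27A and MIR24-2 cluster, had a log2 intensity of 6.68 in the SiO2-NP array and 6.05 in the control array, 1.55-fold higher. MIR194-2, of a microRNA pair known in liver and gut epithelium, had 7.31 in the SiO2-NP array and 6.69 in the control array, 1.53-fold higher. Both lay below the level filter, where 0.521% of all genes were at least 1.5-fold higher and 0.489% lower. Both came just short of 1.5-fold after centring on the running median, at 0.57 and 0.56. MIR103A1, whose microRNA is known for a role in insulin signalling, had 4.82 in the SiO2-NP array and 5.45 in the control array, a difference of -0.63 or 1.54-fold lower. Just outside the threshold were MIR147A at 0.55, MIRLET7A1 of the let-7 family at 0.53 and MIR299 at 0.53.

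Other MIR genes with large positive differences were MIR9-1 (0.52), a neural microRNA gene, MIR375 (0.48), known in pancreatic islets, MIR148A (0.48), a gene abundant in liver, MIR193A (0.45) and MIR135A1 (0.44). At the other end, below MIR103A1, came MIR301A (-0.50), MIR106A (-0.46), MIR222 (-0.44), MIR15A (-0.37), MIR103A2 (-0.34), MIR124-1 (-0.33), MIR186 (-0.30), MIRLET7F1 (-0.26) and MIR181B2 (-0.22). All of these were below the level filter, and MIR301A, MIR106A, MIR148A and MIR124-1 were among the dimmest 2% of all genes.

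The 13 MIR genes above the level filter lay between -0.07 and 0.38, with 10 of 13 positive and none past 1.5-fold, beside 0.141% higher and 0.25% lower of all genes above it. MIR21, a microRNA gene abundant in many tumours, had 8.07 in the SiO2-NP array and 7.69 in the control array, a difference of 0.38. MIR197 followed with 7.76 in the SiO2-NP array and 7.42 in the control array (0.34). MIR139 had 8.07 and 7.78 in the same order (0.29), MIR339 had 8.91 and 8.63 (0.28), and MIR326 had 9.14 and 8.90 (0.24).

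MIR212, paired with MIR132 downstream of CREB signalling in neurons, had 7.56 in the SiO2-NP array and 7.28 in the control array (0.28), and MIR320A differed by 0.18. The remaining members of this set differed by less than 0.1. MIR210, the microRNA gene best known as a hypoxia target, had 8.37 in the SiO2-NP array and 8.38 in the control array, a difference of -0.01. MIR187 (0.05), MIR149 (0.04), MIR211 (0.03), MIR99B (-0.04) and MIR25 (-0.07) also lay close to 0.

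**Figure D3:**
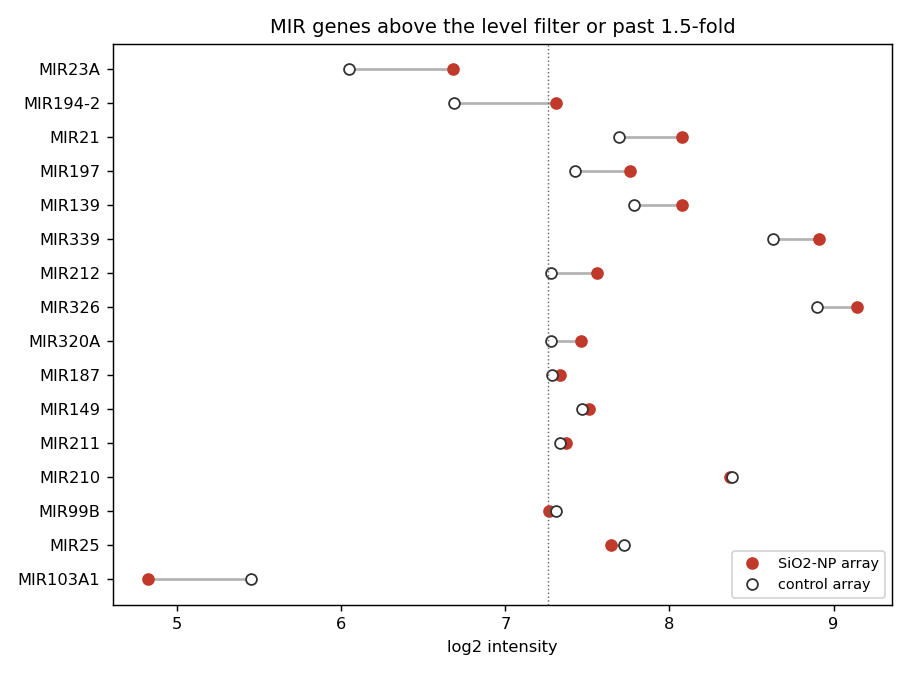
Log2 intensity of the 13 MIR genes above the level filter (dotted line) and the 3 past 1.5-fold, with filled circles for the SiO2-NP array and open circles for the control array, 1 array each. MIR23A and MIR194-2 lie farthest to the right of their control and MIR103A1 farthest to the left.

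Further microRNA genes known in liver, lipid metabolism or stress ran from -0.11 to 0.31 here. Those with larger differences, such as MIR148A (0.48) and MIR222 (-0.44), are given above. MIR33A, which lies in SREBF2 and targets cholesterol export, had 3.98 in the SiO2-NP array and 3.94 in the control array (0.04). MIR192 had 5.80 in the SiO2-NP array and 5.91 in the control array (-0.11). The p53 target MIR34A had 5.37 in the SiO2-NP array and 5.18 in the control array (0.19). The differences were 0.31 for MIR101-1, 0.07 for MIR101-2, 0.21 for MIR221, 0.06 for MIR194-1, -0.02 for MIR29A and -0.01 for MIR146A, which is induced by NF-kB. MIR22, MIR33B, MIR155, MIR378A, MIR371A, MIR372 and MIR373 had no probe with 1 symbol and were not analysed here.

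Neighbouring MIR genes had differences of the same sign in some clusters and of mixed sign in others. Clusters were MIR genes with starts within 10 kb of the next on the same strand in RefSeq. Measured MIR genes without a strand on record were counted neither as clustered nor as solitary. MIR30B, MIR30D, MIR150, MIR320A and MIR451A were among these, so pairs that hold such a gene are missing from the counts. In 28 clusters at least 2 members were measured: 14 held both positive and negative differences, 12 only positive ones and 2 only negative ones. After centring on the running median these counts were 17, 9 and 2. Since 74.0% of all MIR genes were positive and some members lay near 0, the counts are not read as a result about neighbours. The median was 0.11 over 89 clustered and 0.13 over 75 solitary MIR genes.

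The cluster of MIR23A held MIR27A, with 6.31 in both arrays, and MIR24-2, with 4.15 in the SiO2-NP array and 3.91 in the control array. The differences of these neighbours were 0.64, 0.00 and 0.24. MIR194-2 (0.62) lies beside MIR192 (-0.11). MIR16-1 had 4.34 in the SiO2-NP array and 4.08 in the control array (0.26), and its neighbour MIR15A had 6.77 in the SiO2-NP array and 7.14 in the control array (-0.37). MIR221 and MIR222, known for repressing the cell cycle inhibitor CDKN1B, differed by 0.21 and -0.44, and MIRLET7A1, MIRLET7D and MIRLET7F1 by 0.53, -0.12 and -0.26.

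MIR132 and MIR212 differed by 0.25 and 0.28, and the epithelial genes MIR200B, MIR200A and MIR429 by 0.13, 0.19 and 0.10. On chromosome X, MIR106A, MIR19B2 and MIR92A2, a paralogous copy of the MIR17HG cluster, differed by -0.46, -0.20 and -0.14, all at mean levels between 3.04 and 3.80. The imprinted cluster on chromosome 14 that holds MIR299 ran from -0.19 (MIR494) to 0.53 (MIR299). In it, 14 of 42 RefSeq members were measured, with 11 positive and a median of 0.13.

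**Figure D4:**
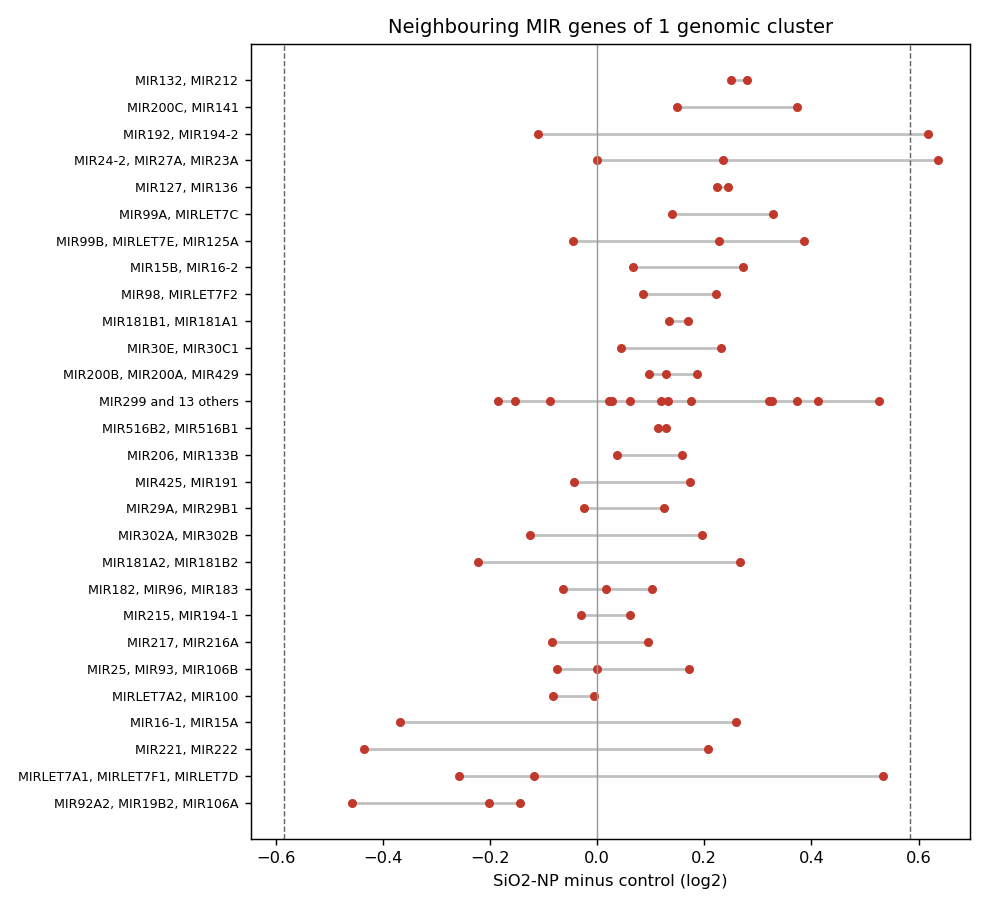
Difference between the arrays (SiO2-NP minus control, log2) of each measured MIR gene in 28 genomic clusters, 1 cluster per line, with a bar from the lowest to the highest member and dashed lines at 1.5-fold. The bars of MIR192 with MIR194-2 and of MIR16-1 with MIR15A cross 0, while MIR132 and MIR212 lie together.

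Genes with the same seed were also compared, since their mature forms can share targets. For several neighbours with opposite differences, 1 mature form each is shown with the seed in capitals. In these forms miR-15a and miR-16 share a seed, as do miR-221 and miR-222 and the let-7 members. The seed of miR-192 is not that of the miR-194 form shown above. In RefSeq the hairpins lie at chr13:50049119-50049201 (MIR15A), chr13:50048973-50049061 (MIR16-1), chrX:45746157-45746266 (MIR221), chrX:45747015-45747124 (MIR222) and chr11:64891137-64891246 (MIR192), all on the minus strand. Those of MIRLET7A1 and MIRLET7F1 lie at chr9:94175957-94176036 and chr9:94176347-94176433 on the plus strand.
hsa-miR-15a-5p: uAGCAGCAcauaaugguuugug
hsa-miR-16-5p: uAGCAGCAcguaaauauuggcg
hsa-miR-221-3p: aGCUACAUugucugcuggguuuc
hsa-miR-222-3p: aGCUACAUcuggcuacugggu
hsa-let-7a-5p: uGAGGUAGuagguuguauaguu
hsa-let-7f-5p: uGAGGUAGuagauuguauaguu
hsa-miR-192-5p: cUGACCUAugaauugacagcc

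The let-7 seed was carried by 10 measured genes with a RefSeq mature form, of which 7 were positive and 3 negative, with a median of 0.11 and a range from -0.26 to 0.53. Among all MIR genes 74.0% were positive, with a median of 0.12. Of the 5 genes with the miR-15 and miR-16 seed 3 were positive (median 0.07), and of the 5 with the miR-181 seed 4 were (median 0.13). Of the miR-30 family, the 4 genes with a RefSeq mature form were positive, with a median of 0.18, and 3 of them were after centring on the running median. MIR30B and MIR30D, measured but outside this count, differed by 0.09 and -0.09. The 3 genes with the seed of miR-25 and miR-92a (MIR25, MIR32 and MIR92A2) were negative, at -0.07, -0.11 and -0.14. With the miR-103a seed, MIR103A1 and MIR103A2 differed by -0.63 and -0.34, and MIR107 by 0.02, which turned negative after centring on the running median (-0.06) or quantile normalization (-0.02).

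Identical mature microRNAs can come from several loci. Among loci with a RefSeq mature form, 18 groups had one in common, and 12 of these had differences of 1 sign. Since 74.0% of all MIR genes were positive, this agreement in sign is not read as a trait of copies. Outside these 18 groups were other numbered copies with mixed signs: MIR124-1, MIR124-2 and MIR124-3 differed by -0.33, 0.41 and 0.13, and MIR153-1 and MIR153-2 by -0.20 and 0.21. MIR194-1 and MIR194-2, which both give miR-194-5p, differed by 0.06 and 0.62, and MIRLET7A1 and MIRLET7A2 by 0.53 and -0.01. MIR16-1 and MIR16-2 differed by 0.26 and 0.27, and MIR128-1 and MIR128-2 by 0.35 and 0.40. Copies share sequence, so a probe may read more than 1 of them.

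Host transcripts named for a microRNA (HG) had a median nearer to 0 than the MIR genes, at 0.06 beside 0.12. After centring on the running median of genes of like level, the medians were 0.01 and 0.08. In either direction 0 of 16 passed 1.5-fold, beside 0.331% higher and 0.369% lower of all genes. With 9 positive and 7 negative, beside 52.3% and 47.6% of all genes, these counts are not read as a trait of host transcripts. In this set 3 lay above the level filter, which 50% of all genes pass. MIRLET7BHG, the host of let-7 genes, had the largest positive difference, with 6.84 in the SiO2-NP array and 6.56 in the control array (0.28). MIR503HG had 7.70 in the SiO2-NP array and 7.46 in the control array (0.23). MIR600HG had the largest negative one, with 6.70 in the SiO2-NP array and 6.94 in the control array (-0.24).

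MIR17HG, the MYC-responsive host of the oncogenic MIR17 to MIR92A1 cluster, had 6.18 in the SiO2-NP array and 6.36 in the control array (-0.18). MIR22HG differed by -0.16, MIR3667HG by -0.20, MIR4697HG by -0.06, MIR31HG by -0.02 and MIR1915HG by -0.02. On the positive side were MIR570HG (0.20), MIR1-1HG (0.17), MIR9-1HG (0.14), MIR7-3HG (0.11), MIR99AHG (0.08), MIR646HG (0.07) and MIR4453HG (0.05). MIR646HG turned to -0.01 after centring on the running median. Where the hairpin was measured too, MIR503 differed by 0.20 beside its host's 0.23, MIR9-1 by 0.52 beside 0.14 and MIR31 by 0.25 beside -0.02. MIR7-3 differed by 0.21 beside 0.11 and MIR1-1 by 0.00 beside 0.17. MIR99A, MIR125B2 and MIRLET7C, all inside MIR99AHG (0.08), differed by 0.33, 0.14 and 0.14.

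Genes other than HG transcripts that span a MIR gene on the same strand were measured for 55 MIR genes, in 46 distinct hosts. No host passed 1.5-fold in either direction, beside 0.331% higher and 0.369% lower of all genes. With so few genes passing, this is not read as a result about hosts. The host median was -0.01 (0.01 after centring on the running median and 0.02 after quantile normalization). Of the 46 hosts, 33 lay above the level filter, which 50% of all genes pass. The MIR gene and its host were both positive in 19 pairs and both negative in 8. In 22 pairs the MIR gene was positive and the host negative, and in 6 the reverse. Since 74.0% of all MIR genes were positive, these counts are not read as a trait of the pairs. The differences of the pairs correlated with an r of -0.05 and a rho of -0.07 over 55 pairs, which share both arrays and, for MIR genes of 1 host, the host value.

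SREBF2, the sterol-regulated transcription factor that holds MIR33A, had 9.57 in the SiO2-NP array and 9.08 in the control array, a difference of 0.50, the largest among the hosts, beside 0.04 for MIR33A. VMP1, which holds MIR21, had 12.22 in the SiO2-NP array and 12.24 in the control array (-0.01), beside 0.38 for MIR21. MCM7, a subunit of the replicative helicase, had 10.54 in the SiO2-NP array and 10.82 in the control array (-0.28). Its MIR25, MIR93 and MIR106B differed by -0.07, 0.17 and 0.00.

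DLEU2, a non-coding gene that holds MIR15A and MIR16-1, had 8.78 in the SiO2-NP array and 9.20 in the control array (-0.42), beside -0.37 for MIR15A and 0.26 for MIR16-1. PANK3 had 10.19 in the SiO2-NP array and 9.95 in the control array (0.24), opposite in sign to its MIR103A1 (-0.63). PANK2, which holds MIR103A2, differed by -0.14, and PANK1, which holds MIR107, by 0.05. SKA2, a kinetochore gene that holds MIR301A, differed by -0.10. SPACA6, which holds MIR99B (-0.04), differed by 0.16, ZRANB2, which holds MIR186 (-0.30), by -0.05, and TLN2, which holds MIR190A, by 0.00. The hosts CHLSN, GPC1, TRPM1, PDE2A and GNAI3 of MIR339, MIR149, MIR211, MIR139 and MIR197 differed by 0.05, 0.06, 0.13, -0.07 and -0.08.

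**Figure D5:**
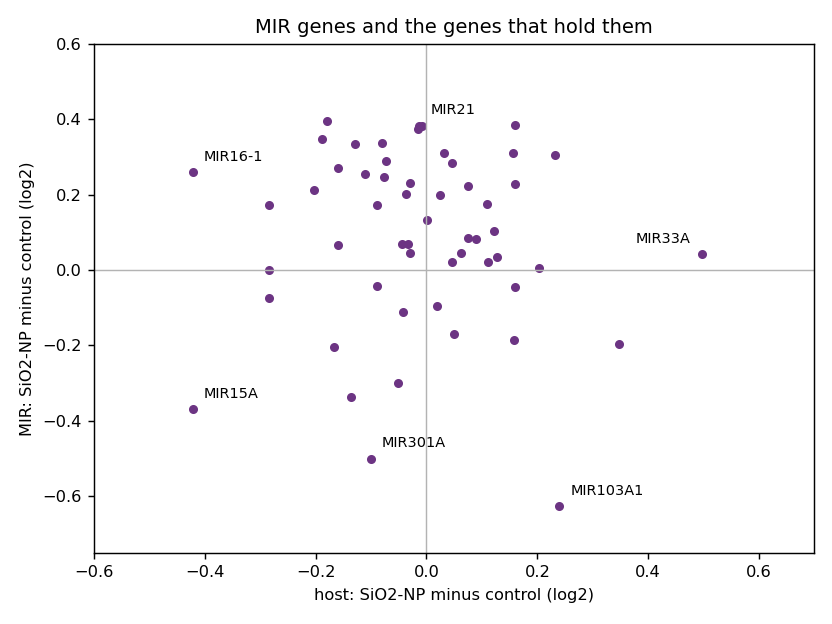
Difference between the arrays (SiO2-NP minus control, log2) of 55 MIR genes (vertical) against that of the gene that spans each of them (horizontal), 1 point per pair. The points show no shared direction (r = -0.05), with MIR33A far right through its host SREBF2 and MIR103A1 lowest.

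The genes that make, load and turn over microRNAs differed little. Of 38 on the list 36 were measured, and 32 of these lay above the level filter, which 50% of all genes pass. In either direction 0 passed 1.5-fold. The median was -0.04, which became 0.01 after quantile normalization, with 13 positive and 23 negative. Among all genes above the filter 40.2% were positive and 59.8% negative, and 0.141% were at least 1.5-fold higher and 0.25% lower, so these counts are near those of genes of like level. In nuclear cropping, DROSHA, the nuclease, had 8.90 in the SiO2-NP array and 8.92 in the control array (-0.02), and its partner DGCR8 had 8.31 and 8.18 in the same order (0.13). XPO5, the exporter, differed by -0.07 and RAN, its GTPase, by -0.07.

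DICER1 had 10.98 in the SiO2-NP array and 10.98 in the control array (0.01), and its RNA-binding partners TARBP2 and PRKRA differed by -0.14 and -0.15. AGO2, the Argonaute that can cleave targets, had 8.88 in the SiO2-NP array and 8.78 in the control array (0.10), and AGO1, AGO3 and AGO4 differed by -0.12, 0.05 and 0.05. The largest values were LIN28A (-0.43), a let-7 inhibitor below the level filter, GEMIN4 (-0.21), TNRC6B (0.16), a silencing cofactor of Argonaute, and PRKRA. LIN28A rested on 2 probes that disagreed, since its brighter probe alone moved the value by 0.43.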

How the data were processed

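The authors deposited a table of log2 intensities for 33297 probes on 2 arrays, 1 per group. Values between 2.08 and 14.4 fit a log2 scale, which no source states. The tools named are MAS5 and RMA, per the submitters' processing notes. Neither their versions, nor their part in these values, nor the probes' build is stated. Genes were named by the platform annotation supplied with the table: 19460 probes had 1 symbol, 12083 had none, and the 1754 with several were set aside. Probes of a gene were averaged, and all 189 members had 1 probe. RefSeq (GRCh38.p14) held gene entries for 173 MIR genes and 15 HG genes, with no symbol changed, and hairpins for 155 MIR genes. Hosts and clusters came from RefSeq overlap, for MIR genes with a strand on record.

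Control was subtracted from SiO2-NP on the log2 scale. With 1 array per group no test was possible, and precision is limited by the 2 arrays. Members and lists were chosen with earlier results of these data known. Genes were named by a rule: MIR genes above the level filter, the 10 largest differences each way, all HG transcripts, hosts of these, listed liver and stress genes, and the main biogenesis genes. Other members of seed groups, clusters and copies were named after their values were seen. So were RAN, TARBP2, AGO1, AGO3 and AGO4, hosts of genes outside the rule, and other MIR genes inside HG transcripts. Calculations were tested on simulated data. Figures were drawn with matplotlib 3.10.9, and values computed with pandas 2.3.3 and NumPy 2.4.6 under Python 3.11.15.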

Additional observations from a re-analysis of the deposited data

Results flagged for a closer look

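Of 34 probes that list a MIR symbol together with other symbols, and so were left out, 1 was at least 1.5-fold higher and 0 were at least 1.5-fold lower on these 2 arrays, beside 0.331% and 0.369% of all genes. These probes are data outside the comparison, and the single one past the threshold is given for that reason. Probe 7917942 had a log2 intensity of 5.91 in the SiO2-NP array and 5.28 in the control array, a difference of 0.63. Over the 34 probes the median was 0.08, with 24 positive, beside 52.3% positive among all genes and 64.3% among those below the level filter, and the range ran from -0.55 to 0.63. With 1 array per group this has no replicate check.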

How the results depend on the processing

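The counts of 2 MIR genes at least 1.5-fold higher and 1 lower were 0 and 0 at 2-fold, and also with a level filter at the median gene mean or at the 75th percentile, which by construction leave fewer genes. At 2-fold, 2 of all 18417 genes were higher and 10 lower. Centring on the running median of genes of like level left 0 MIR genes higher and 1 lower, beside 46 and 82 of all genes. The cause of this shift was not tested. With the 75th percentile as the filter, 2 MIR genes passed it in place of 13. With probes of several symbols kept, 3 MIR genes were at least 1.5-fold higher and 1 lower. Under that rule 15 passed the level filter at the median gene mean. Over these alternatives, the other scalings, the rules for probes and a cluster distance of 50 kb, every list median moved by less than 0.1. That bound is wider than the medians of HG transcripts, other hosts and biogenesis genes themselves. Centring on the running median took the HG median from 0.06 to 0.01. The medians of other hosts and of biogenesis genes changed sign after quantile normalization. The median of MIR genes lay between 0.08 and 0.12. Of the 225 single differences of members and biogenesis genes, LIN28A alone moved by 0.1 or more. No difference past 1.5-fold changed sign, while 21 small ones did after centring on the running median. Alternative pseudocounts were not needed on a log2 table. No paired analysis was possible because there was only 1 array per group. Nor was there a replicate to leave out.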
